A study of Mus musculus with 55 samples.

Results

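The genes Atf3, Maff, Mafk and Mafg were followed through cultured mouse neurons that were left to mature and were then stimulated in several ways. They are 4 of 28492 genes measured in 1 experiment and 4 of 28216 in the other. They were chosen by name, and the choice rested on measured values: Mafk had stood out after 180 min of KCl at 7 days in vitro (7DIV) and Atf3 after 180 min of bicuculline with 4-aminopyridine at 23DIV. The values of all members in those 2 responses, and in any difference that holds one of them, are therefore given below as a description without a test. Every other comparison was tested. Tests that use basal neurons at 7DIV or 23DIV share those basal samples with the 2 responses, so they are not independent of the choice. All 4 genes passed the filter on low counts, which kept genes above 5 CPM (counts scaled to a common library size by TMM) in at least 2 samples, in both experiments.

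The cells were primary forebrain neurons, from cortex and hippocampus of CD1 mouse embryos of both sexes. In the maturation experiment (28 samples), basal neurons at 7DIV and 23DIV were compared with neurons given 55 mM KCl, which depolarizes the membrane, or 50 µM bicuculline (Bic), which blocks GABA-A receptors and so releases synaptic firing, together with 2.5 mM 4-aminopyridine (Bic+4AP), a potassium channel blocker, for 15 or 180 min. The study groups the later stage of this experiment with its 21DIV cultures, whereas the labels call it 23DIV. In the stimuli experiment (27 samples), 21DIV neurons received 55 mM KCl or 50 µM Bic alone for 15, 45 or 180 min and were compared with basal neurons. Others were silenced for 48 h with 1 µM tetrodotoxin (TTX), which blocks sodium channels, and were compared as basal TTX with neurons sampled 15, 45 or 180 min after TTX withdrawal (TTXw). The study washed TTX out with repeated exchanges of fresh medium, whereas KCl and Bic were added by replacing a small part of the medium. It states that control neurons were washed in the same way, without naming the samples. The part of the wash in the TTXw responses was not tested. Each group had 3 samples, except for 2 in both Bic+4AP groups at 23DIV, in every KCl and Bic group at 21DIV and in TTXw at 45 min, and 4 in basal TTX. No genotype or allele differed between groups. The labels do not say whether replicates came from separate cultures, so p-values measure the spread between these samples, which may be technical.

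Atf3 encodes a transcription factor of the bZIP class that binds CRE-type sites and is known as an early gene of cellular stress and of axon injury. Maff, Mafk and Mafg encode the small MAF proteins, bZIP factors that lack an activation domain of their own. They act as pairs among themselves or with partners of the CNC and BACH families, such as NRF2 (gene Nfe2l2), at antioxidant response elements, where the partner decides between activation and repression.

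Each library of 7DIV neurons held 1659722 to 4474968 gene counts, those of 23DIV neurons 1784170 to 14012872, and those of the stimuli experiment 1177500 to 3909487. Neuronal markers were present in every library, with summed levels from 4306 to 10695 CPM over both experiments, but the cultures also held other cells. Astrocyte markers summed to between 407 and 4651 CPM in the maturation experiment and to between 1562 and 12063 CPM in the stimuli experiment, whereas microglia markers never summed to more than 20.6 CPM. In such bulk samples, fewer cells of a type and less RNA per cell cannot be told apart. A pair of libraries stood apart within their groups on Atf3, namely replicate 3 of KCl at 15 min and replicate 1 of KCl at 180 min, both at 23DIV. The responses of Atf3 to KCl at 23DIV are given with and without them. Not every other result that holds these libraries is.

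The promoters of the members are shown because the genes that moved and Mafg, which moved least, can be compared in them. RefSeq (GRCm38.p6) gave windows of 300 bases, from 250 before to 50 after a transcription start, for all 4 genes. Atf3 lies on chromosome 1 (191170296 to 191183333, minus strand) with the window chr1:191183284-191183583. Maff lies on chromosome 15 (79346621 to 79359078, plus strand), has 3 listed starts and is shown with the second, chr15:79347270-79347569. Mafk lies on chromosome 5 (139791536 to 139802653, plus strand) with the window chr5:139791286-139791585. Mafg lies on chromosome 11 (120625117 to 120634955, minus strand) with the window chr11:120633498-120633797. Each is written 5′ to 3′ on the strand of its gene. Capitals mark matches to 7 motifs searched on both strands, which were the CRE (TGACGTCA), the CRE core (TGACG), the AP-1 site (TGACTCA or TGAGTCA), the antioxidant response core (TGACNNNGC), the MAF site core (TGCTGAC), the MEF2 site and the CArG box of SRF.
Atf3: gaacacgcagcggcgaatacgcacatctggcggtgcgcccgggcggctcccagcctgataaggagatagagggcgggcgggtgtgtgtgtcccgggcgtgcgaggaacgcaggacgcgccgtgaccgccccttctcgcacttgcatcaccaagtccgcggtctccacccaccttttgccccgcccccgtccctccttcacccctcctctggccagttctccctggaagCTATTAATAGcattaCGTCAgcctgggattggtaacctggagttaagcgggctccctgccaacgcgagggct
Maff: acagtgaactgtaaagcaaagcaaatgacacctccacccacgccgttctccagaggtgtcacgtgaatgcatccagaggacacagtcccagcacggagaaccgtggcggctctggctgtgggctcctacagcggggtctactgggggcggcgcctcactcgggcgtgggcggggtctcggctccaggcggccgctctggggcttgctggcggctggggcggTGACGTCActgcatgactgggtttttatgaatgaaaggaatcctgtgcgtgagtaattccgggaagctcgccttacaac
Mafk: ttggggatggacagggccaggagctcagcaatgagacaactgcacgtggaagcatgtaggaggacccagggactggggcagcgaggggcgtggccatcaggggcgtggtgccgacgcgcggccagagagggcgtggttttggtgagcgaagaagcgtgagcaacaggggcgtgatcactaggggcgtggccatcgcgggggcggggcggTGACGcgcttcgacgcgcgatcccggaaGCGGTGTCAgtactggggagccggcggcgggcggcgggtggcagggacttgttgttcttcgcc
Mafg: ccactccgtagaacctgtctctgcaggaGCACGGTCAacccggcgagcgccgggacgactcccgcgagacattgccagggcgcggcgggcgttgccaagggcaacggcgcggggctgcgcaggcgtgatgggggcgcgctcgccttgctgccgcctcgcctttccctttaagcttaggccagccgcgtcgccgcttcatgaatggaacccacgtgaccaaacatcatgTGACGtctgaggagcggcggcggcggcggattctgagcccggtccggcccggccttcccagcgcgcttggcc

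Each of the 4 windows held at least a CRE core, a motif found in 20.8% of 32851 windows of this length. Only the Maff window held a full CRE, which begins 29 bases before the start and overlaps its 2 core sites. A full CRE was found in 1.79% of all windows. Atf3 had a CRE core that begins 7 bases before the start and, 22 bases before it, a MEF2 match (CTATTAATAG), a motif found in 3.19% of windows. Mafk had a CRE core at 41 bases and an antioxidant response core at 13 bases before the start, the latter found in 12.4% of windows. Mafg also had a CRE core, at 22 bases, and an antioxidant response core, at 222 bases before the start. The first Maff window, chr15:79346371-79346670, held an antioxidant response core and the third, chr15:79348152-79348451, a CRE core. The AP-1 site, MAF site core and CArG box, found in 5.20%, 4.67% and 1.63% of windows, matched in none of the 6 windows of the members. A match of letters is not evidence of binding, and no match says only that these letters are not in this window.

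To see how the genes changed as neurons matured, basal neurons at 23DIV were first compared with basal neurons at 7DIV. Maff was the member that fell. It was measured at 22.3, 9.20 and 8.67 CPM in the 3 samples at 7DIV and at 5.36, 0.894 and 1.11 CPM at 23DIV. Every 23DIV sample was below every 7DIV sample. The log2 fold change was -2.44 (SE 0.62), which is 5.43-fold lower, with an adjusted p = 0.0070. Without 23DIV basal replicate 1, the highest of its group, it was -3.64. Every adjusted p given is from the quasi-likelihood test of edgeR, adjusted by Benjamini-Hochberg over all genes. Calls required that p to be under 0.05 with a 1.5-fold or larger change. In this comparison 33.1% of 10510 genes tested were called, so that 1 of 4 members is no more than the background. Astrocyte markers moved in the same comparison, with 6 of 7 higher at 23DIV, and their part in the result was not tested.

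Atf3 at rest was measured at 10.4, 2.45 and 10.6 CPM at 7DIV and at 25.8, 5.54 and 14.9 CPM at 23DIV. The groups overlapped, and the log2 fold change of 0.92 (SE 0.51, adjusted p = 0.18) was not called. Mafk had 5.68, 4.91 and 7.86 CPM at 7DIV and 11.8, 8.76 and 11.3 CPM at 23DIV. All 3 later samples were above the earlier ones, yet the log2 fold change of 0.77 (SE 0.34, adjusted p = 0.090) missed the threshold. Mafg had 172 to 199 CPM at 7DIV and 154 to 165 CPM at 23DIV, a log2 fold change of -0.18 (SE 0.13, adjusted p = 0.31). Thus the members had unlike levels at rest, with Mafg, as read from a predicted transcript, far above the other members. That transcript held 18343 counts over the maturation experiment, against 3180 for the curated one. The distance of Mafg from the other members therefore depends on the transcript used. With 3' end counts, each transcript gives tags from its end only, so levels of different genes are compared here without division by length.

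**Figure D1:**
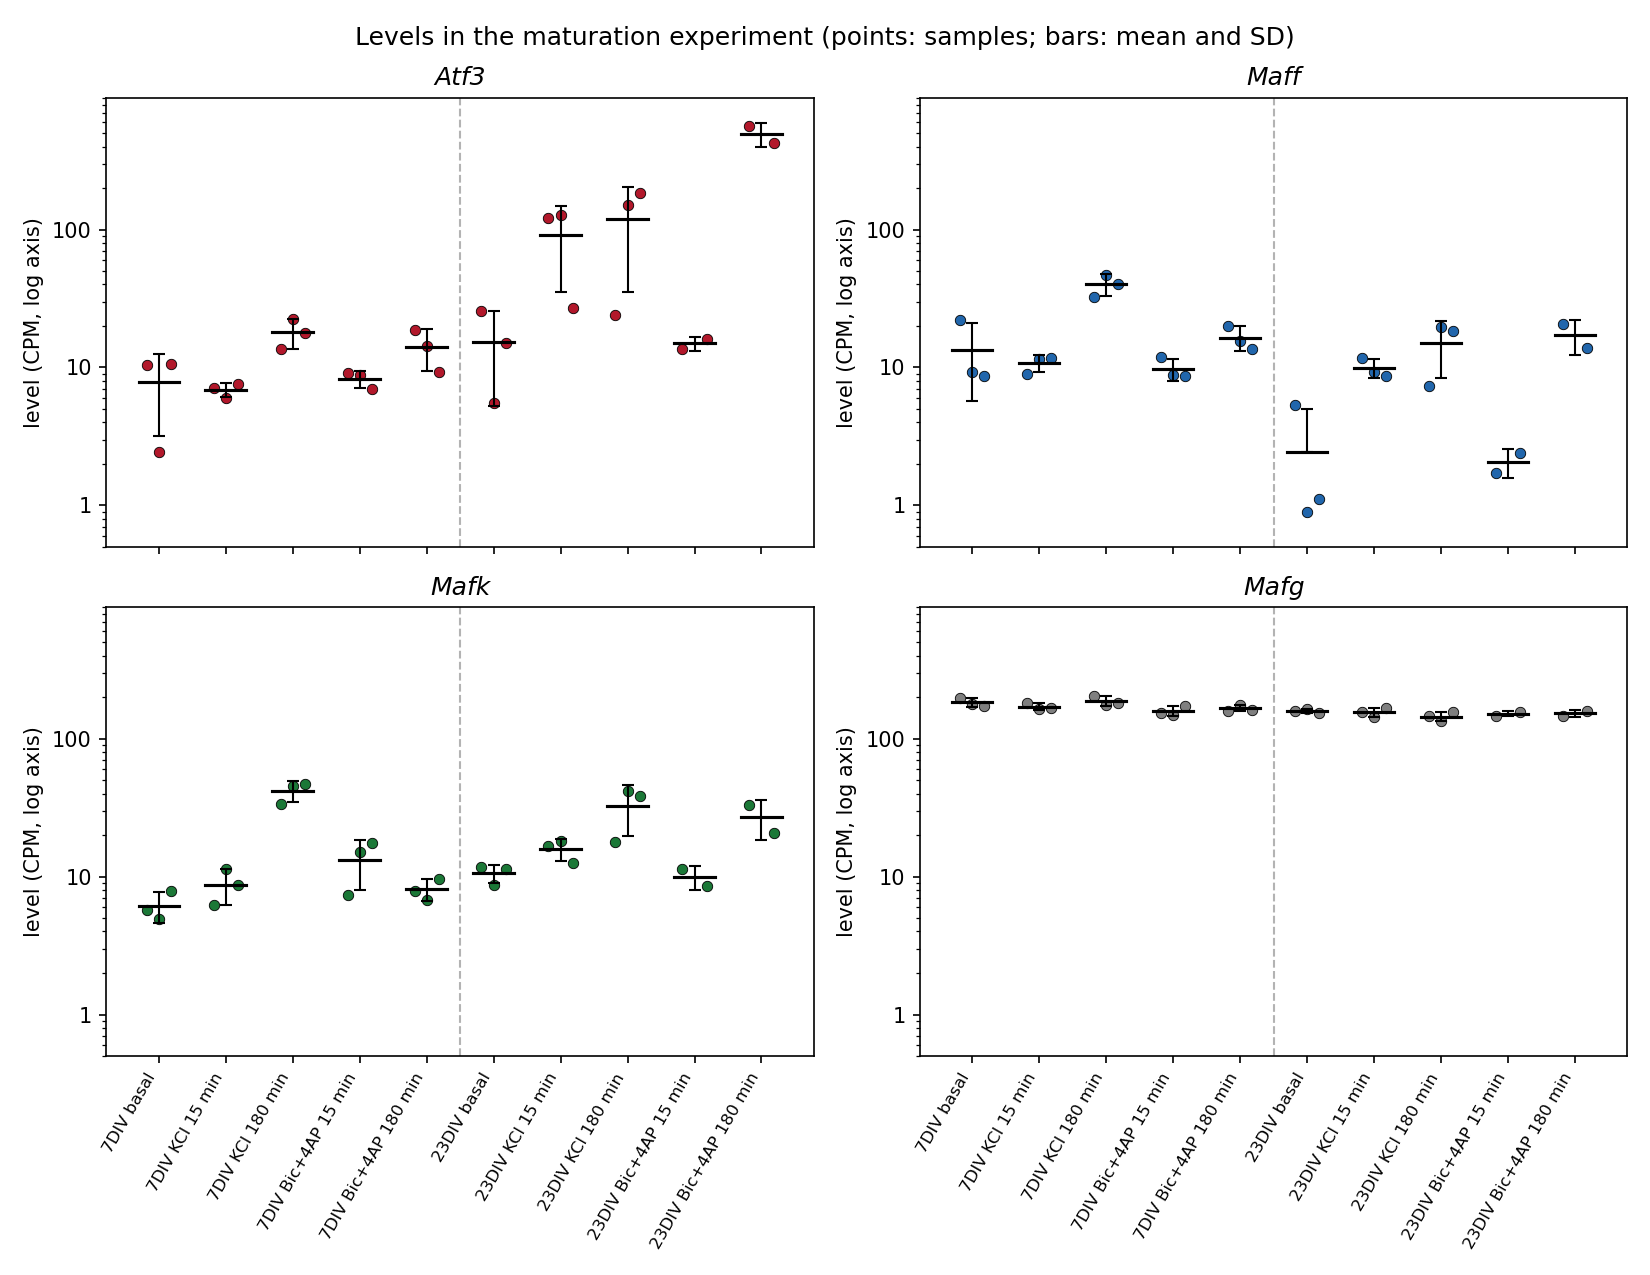
Level of each gene (CPM on a log axis) in every sample of the maturation experiment, in 10 groups separated by stage at the dashed line, where points are samples and bars the mean and SD (a lower SD arm that would pass below 0 is left out). Atf3 reaches 427 and 562 CPM with Bic+4AP at 180 min at 23DIV, Mafk 33.9 to 47.1 CPM with KCl at 180 min at 7DIV, and Mafg stays between 134 and 206 CPM throughout.

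In immature neurons, short stimulation left no member past the threshold. Neither KCl nor Bic+4AP at 15 min, nor Bic+4AP at 180 min, had any called gene among 11746 tested (0% each by edgeR's quasi-likelihood test), while 659, 793 and 701 genes had an unadjusted p under 0.05. The likelihood ratio test called 5, 5 and 2 genes and DESeq2 called 3, 3 and 0, none of them a member. The activity genes showed little as well. With Bic+4AP at 180 min, for instance, Fos, the classic early gene, had a log2 fold change of 0.69 (SE 0.28, adjusted p = 0.74), Nr4a1, an orphan nuclear receptor, one of 0.53 (adjusted p = 0.83), and Npas4, a neuronal activity factor, one of 0.49 (adjusted p = 0.87). With KCl at 15 min the 3 largest were Arc (log2 fold change -0.50, adjusted p = 0.93), Egr1 (0.39, adjusted p = 0.91) and Fos (-0.24, adjusted p = 0.96). With Bic+4AP at 15 min they were Egr1 (0.30, adjusted p = 0.87), Arc (0.21, adjusted p = 0.97) and Npas4 (0.21, adjusted p = 0.94). Mafk reached 7.31, 15.0 and 17.4 CPM after Bic+4AP at 15 min, with 2 of 3 samples above all basal samples, but its log2 fold change of 1.03 (SE 0.37) had an adjusted p = 0.62.

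The response of immature neurons to 180 min of KCl was one of those that led to the choice of members. Mafk was measured at 33.9, 45.1 and 47.1 CPM, against the 4.91 to 7.86 CPM of basal neurons, and no sample overlapped (log2 fold change 2.71, SE 0.35). Maff was measured at 32.6, 47.2 and 40.4 CPM against 8.67 to 22.3 CPM, also without overlap (log2 fold change 1.60, SE 0.41). This was the highest level of Maff in the maturation experiment. Atf3 was measured at 13.7, 22.5 and 17.6 CPM, all above its basal samples (log2 fold change 1.08, SE 0.69). The basal level of Atf3 here rested on 22, 4 and 39 counts, and without basal replicate 3 the log2 fold change was 0.77. Mafg was within its basal range in 2 of 3 samples, at 206, 177 and 182 CPM. Among the relatives of Atf3, 6 of 19 tested were called higher and none lower in this comparison, where 1.98% of genes were called, and they included Junb (log2 fold change 2.63, SE 0.23) and the CREB family repressor Crem (log2 fold change 1.56, SE 0.19).

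At 23DIV, Atf3 was already higher at 15 min of KCl. It was measured at 121, 127 and 26.9 CPM, all above the 3 basal samples, although replicate 3 was only just above the highest of them. The log2 fold change was 2.57 (SE 0.51, adjusted p = 0.0017), and 2.998 without replicate 3. Maff rose too, to 11.7, 9.29 and 8.72 CPM from at most 5.36 CPM (log2 fold change 2.08, SE 0.45, adjusted p = 0.0035). The call of Maff was lost when only these groups were fitted (adjusted p = 0.056), and without 23DIV basal replicate 1 its log2 fold change was 3.25. Mafk, at 16.7, 18.1 and 12.6 CPM, was above its basal samples without passing the threshold (log2 fold change 0.57, SE 0.29, adjusted p = 0.26). Thus 2 of 4 members were called, where 6.23% of all genes were. Neuronal markers summed to 6378 to 6953 CPM against 7343 to 8457 CPM in basal neurons, with 1 of 9 called lower, and those of the oligodendrocyte lineage to 990 to 1197 CPM against 1468 to 1573 CPM, with 1 of 6 called lower. Their part in the result was not tested.

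After 180 min of KCl at 23DIV, 3 of 4 members had risen, where 4.89% of genes were called. Atf3 was measured at 23.9, 151 and 185 CPM, a log2 fold change of 2.96 (SE 0.51, adjusted p = 0.00062). Replicate 1 fell inside the basal range and the other samples were far above it. Maff was measured at 7.40, 19.6 and 18.4 CPM (log2 fold change 2.66, SE 0.45, adjusted p = 0.00042). Mafk was measured at 17.7, 42.1 and 38.5 CPM (log2 fold change 1.62, SE 0.29, adjusted p = 0.00085). Replicate 1 was thus the lowest for each of these genes. Without it the log2 fold changes were 3.44, 2.99 and 1.91. Without 23DIV basal replicate 1 that of Maff was 3.84. Mafg, at 145, 134 and 155 CPM, had a log2 fold change of -0.14 (SE 0.11, adjusted p = 0.52). Here too neuronal markers (6833 to 7272 CPM, 1 of 9 called lower) and oligodendrocyte lineage markers (870 to 950 CPM, 2 of 6 called lower) summed to less than in every basal sample, and their part in the result was not tested.

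With Bic+4AP at 23DIV no member was called at 15 min. Atf3 was measured at 13.7 and 16.1 CPM, Maff at 1.71 and 2.40 CPM (from 3 and 7 counts) and Mafk at 11.4 and 8.59 CPM, all within their basal ranges except for 1 Mafk sample just below it. Over all genes 0.0511% were called. Fos (log2 fold change 2.01, adjusted p = 0.0045), Arc, an effector of synaptic strength (1.98, adjusted p = 0.011), and Npas4 (1.86, adjusted p = 0.011) had risen at this time.

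At 180 min of Bic+4AP, the other response that led to the choice, Atf3 was measured at 562 and 427 CPM, the highest levels of any member in either experiment (log2 fold change 5.00, SE 0.57). Maff, at 20.8 and 13.8 CPM, and Mafk, at 33.3 and 20.9 CPM, also lay wholly above their basal samples, with log2 fold changes of 2.87 (SE 0.47) and 1.36 (SE 0.32). Mafg, at 147 and 159 CPM, had one of -0.06 (SE 0.12). Neuronal markers summed to 6652 to 6981 CPM here against 7343 to 8457 CPM in basal neurons, and astrocyte markers to 1114 to 2316 CPM against 3416 to 4599 CPM. Oligodendrocyte lineage markers summed to 523 to 808 CPM against 1468 to 1573 CPM, and microglia markers to 19.5 to 20.6 CPM against 4.29 to 8.99 CPM, with 2 of 3 tested called higher. The part of these cells in the result was not tested. Without 23DIV basal replicate 1 the log2 fold change of Maff was 4.05.

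The difference of the response between stages was tested where it does not hold one of the responses that led to the choice. With KCl at 15 min, Maff responded more at 23DIV, by 2.38 on the log2 scale (SE 0.62, adjusted p = 0.039). Without 23DIV basal replicate 1 it was 3.55. Maff was the only member called, where 2.03% of genes were, and the call was lost in 10 of 22 alternatives, 8 of which left out 1 library. Atf3 had a larger but less precise difference of 2.90 (SE 0.92, adjusted p = 0.10). With Bic+4AP at 15 min no member differed by stage, where 0.00851% of genes did. At 180 min, the difference of 23DIV from 7DIV for Bic+4AP was 4.25 for Atf3 (SE 0.92), 2.56 for Maff (SE 0.64) and 1.03 for Mafk (SE 0.50), given without a test. For KCl at 180 min it was 1.87 for Atf3 (SE 0.87), 1.07 for Maff (SE 0.60) and -1.09 for Mafk (SE 0.45), also without a test. Mafk was chosen for its response to KCl at 180 min at 7DIV, so no conclusion on stage is drawn from its value.

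Both stimuli were also compared with each other at matched times. At 23DIV and 15 min, the log2 difference of Bic+4AP minus KCl was -2.61 for Atf3 (SE 0.66, adjusted p = 0.016) and -2.22 for Maff (SE 0.64, adjusted p = 0.034). These were 2 of 4 members, where 6.53% of genes were called. Both calls were lost without KCl replicate 1 or without either Bic+4AP replicate, and that of Atf3 held without KCl replicate 3. The values for 180 min hold the responses used for the choice and carry no test. At 7DIV, the log2 difference of Bic+4AP minus KCl was -2.38 (SE 0.33) for Mafk and -1.28 (SE 0.39) for Maff. At 23DIV, Bic+4AP was above KCl by 2.04 (SE 0.50) for Atf3, while Maff and Mafk differed by 0.21 (SE 0.42) and -0.26 (SE 0.32).

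**Figure D2:**
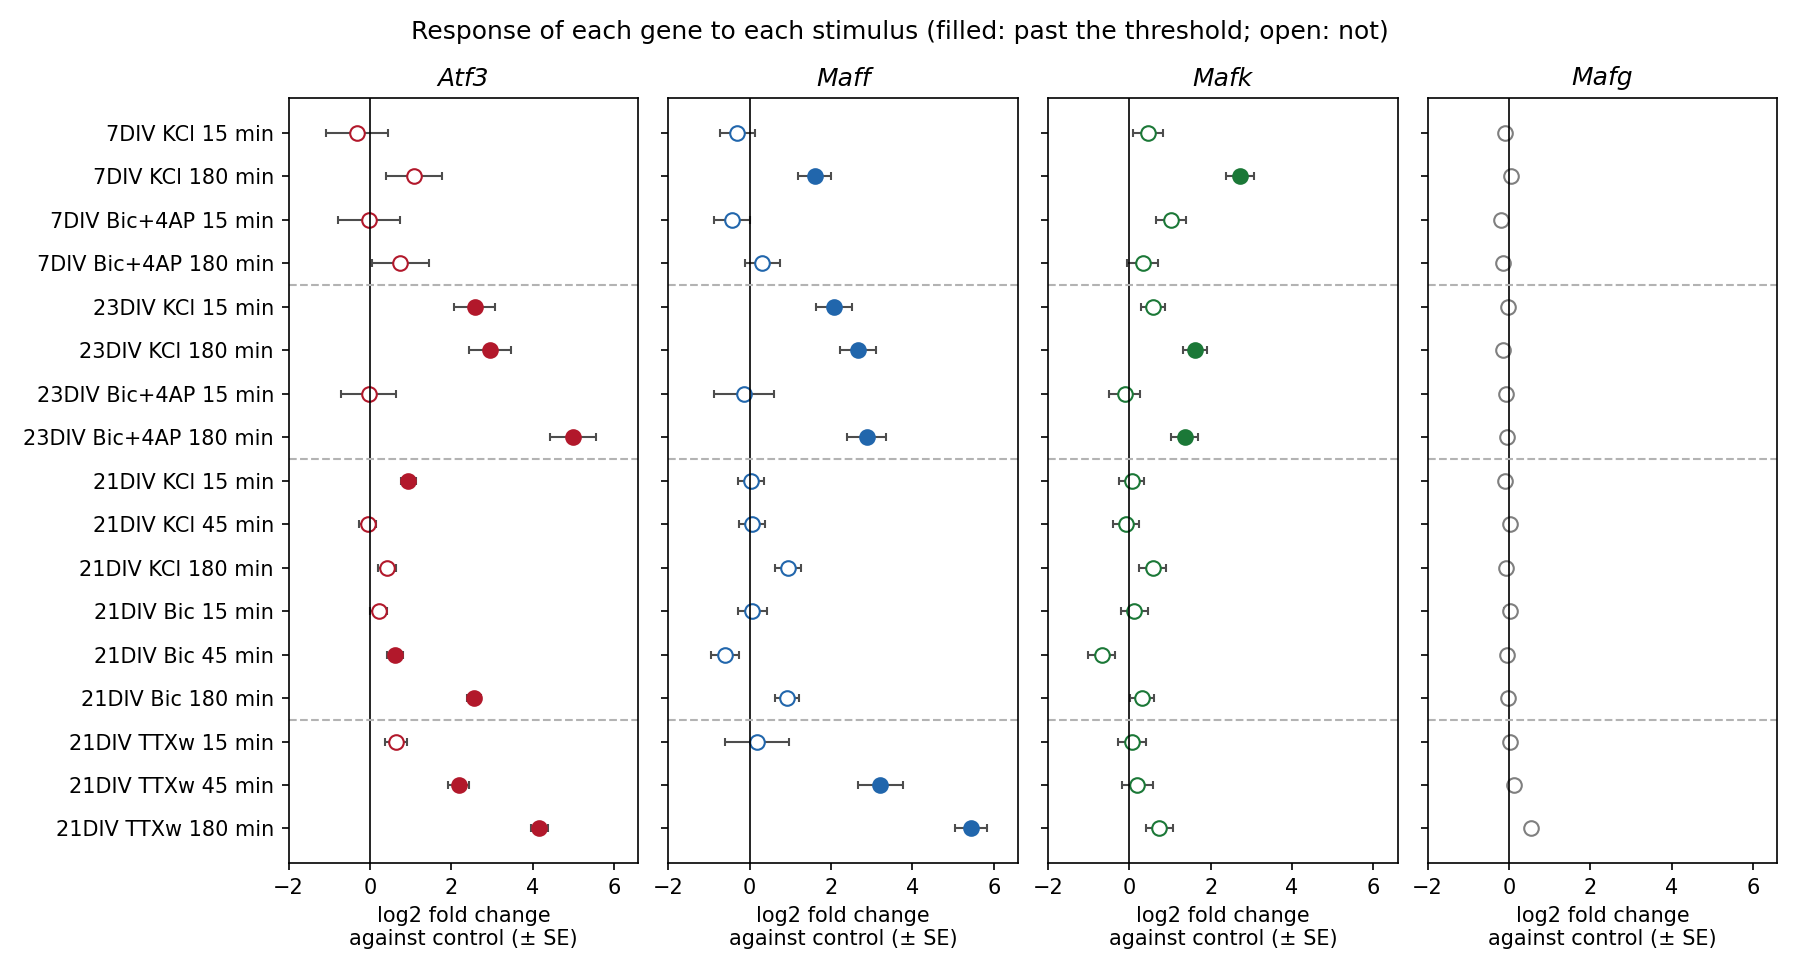
Log2 fold change against the control of the same stage and experiment (x axis, with SE) for each gene, stimulus and time (y axis). Filled points passed the threshold and open points did not. In the responses that led to the choice of members, the filling is a description and not a test. These are KCl at 180 min in immature neurons and Bic+4AP at 180 min at the later stage. Mafg lies within 0.21 of 0 in every response except TTXw at 180 min (0.54), and the largest values are those of Maff (5.45) and Atf3 (4.16) with TTXw at 180 min and of Atf3 (5.00) with Bic+4AP at 180 min.

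The stimuli experiment gave separate samples in which the members could be followed at 3 times. Its basal neurons, though of like age, had other levels than those of the maturation experiment. Atf3 was measured at 38.1, 59.9 and 47.4 CPM and Maff at 17.2, 17.5 and 14.0 CPM in basal neurons at 21DIV. The experiments were normalized separately, and this difference between them was not tested. Mafk was measured at 8.60, 9.68 and 19.3 CPM and Mafg at 159, 185 and 151 CPM. KCl and Bic were compared with the same 3 basal samples.

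With KCl, Atf3 was briefly higher. It was measured at 80.8 and 104 CPM at 15 min, above all basal samples (log2 fold change 0.95, SE 0.19, adjusted p = 0.00084). At 45 min it was back at 45.2 and 47.8 CPM (log2 fold change -0.05, adjusted p = 0.96), and at 180 min it was measured at 73.5 and 56.8 CPM (log2 fold change 0.42, SE 0.21, adjusted p = 0.42). The call at 15 min was lost without KCl replicate 2 (log2 fold change 0.77, adjusted p = 0.070). In the same comparison astrocyte markers summed to 2979 to 3068 CPM against 1562 to 1943 CPM, with 3 of 7 called higher, as were 2 of 9 neuronal and 4 of 6 oligodendrocyte lineage markers, and their part in the result was not tested. Only this member was called at 15 min, where 7.22% of genes were, and none at 45 or 180 min, where 0.765% of genes were at each time.

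Maff and Mafk had their highest KCl values at 180 min. Maff was measured at 28.3 and 33.9 CPM, both above all basal samples (log2 fold change 0.94, SE 0.32), with an adjusted p = 0.18, and it passed the threshold when only the compared groups were fitted (adjusted p = 0.033). Mafk was measured at 16.96 and 19.51 CPM, of which only the latter was above basal replicate 5 (log2 fold change 0.57, SE 0.33, adjusted p = 0.49). At 15 and 45 min both genes overlapped their basal samples, with Maff between 10.6 and 23.6 CPM and Mafk between 10.6 and 15.4 CPM. The stimulus itself was visible in the cells, since Arc (log2 fold change 1.56, SE 0.20), Nr4a1 (1.43, SE 0.23) and Fos (1.39, SE 0.21) were called higher at 180 min, and Arc (1.61, SE 0.19), Nr4a1 (1.03, SE 0.22) and Npas4 (0.77, SE 0.16) at 45 min.

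With Bic alone, Atf3 climbed over time. It was measured at 58.2 and 53.1 CPM at 15 min, within its basal range (log2 fold change 0.22, adjusted p = 0.66). At 45 min it was measured at 71.6 and 76.5 CPM, above every basal sample (log2 fold change 0.62, SE 0.19, adjusted p = 0.037), a call that was lost in 3 other settings and without any of 4 single libraries. Astrocyte markers were higher in the same comparison, with 5 of 7 called, and their part in the result was not tested. At 180 min it was measured at 309 and 258 CPM, far above every basal sample. The log2 fold change was 2.56 (SE 0.18, adjusted p = 2e-13), or 5.88-fold, and lay between 2.40 and 2.73 in all 15 alternatives, with Atf3 called in each. Atf3 was the seventh by size among 83 genes called higher. It was the only member called at 45 and 180 min, where 7.45% and 0.765% of genes were called. At 15 min no member was called, where 3.42% of genes were, while Arc rose by 3.31 on the log2 scale (SE 0.18), Npas4 by 1.84 (SE 0.15) and Nr4a1 by 1.36 (SE 0.23).

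Maff with Bic at 180 min was measured at 29.003 and 32.789 CPM, above all basal samples and close to its level with KCl (log2 fold change 0.92, SE 0.29, adjusted p = 0.19). Fitted on the compared groups only, it passed the threshold (adjusted p = 0.0097), as it did in 1 F test over the 3 time points of Bic (adjusted p = 0.013). At 45 min it was lower than every basal sample, at 10.5 and 10.9 CPM, without passing the threshold (log2 fold change -0.60, SE 0.35, adjusted p = 0.32). Mafk ranged from 5.76 to 16.2 CPM over the 6 Bic samples, inside the spread of basal neurons except for 1 sample at 45 min. Mafg ranged from 156 to 170 CPM.

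Set against KCl at the same time, Bic gave more Atf3 at 180 min, by 2.13 on the log2 scale (SE 0.21, adjusted p = 1e-08), or 4.39-fold. This was 1 of 4 members, where 0.723% of genes were called. Maff did not differ detectably there, with a difference of -0.02 (SE 0.33), which is -0.67 to 0.64 at 2 SE either way, nor did Mafk (-0.27, SE 0.34). At 45 min no member was called, where 0.698% of genes were (Atf3 0.67, SE 0.22, adjusted p = 0.19).

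In neurons silenced with TTX, Atf3 and Maff were clearly lower than in basal neurons. Atf3 was measured at 7.98, 12.8, 8.58 and 10.1 CPM in basal TTX, all far below the 38.1 to 59.9 CPM of basal neurons. The log2 fold change was -2.26 (SE 0.22, adjusted p = 2e-10), or 4.80-fold lower. Maff was nearly lost, with 5, 2, 1 and 2 counts (3.33, 1.16, 0.715 and 0.723 CPM) in basal TTX against 37 to 60 counts in basal neurons. Its log2 fold change was -3.53 (SE 0.46, adjusted p = 8.2e-08), and -4.16 without basal TTX replicate 1. From the summed counts, Maff was 12.1 times as high in basal as in basal TTX, with an exact 95% interval of 6.38 to 25.7. This interval covers counting error at most and not the spread between samples.

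Mafk was measured at 7.32, 6.97, 7.87 and 6.87 CPM in basal TTX, below every basal sample (log2 fold change -0.77, SE 0.30, adjusted p = 0.046), but the call was lost in 12 of 17 alternatives, and without basal replicate 5 the log2 fold change was -0.34 (adjusted p = 0.48). Mafg, at 126, 124, 121 and 129 CPM, also lay below every basal sample. Its log2 fold change of -0.40 (SE 0.11, adjusted p = 0.0039) was under the 1.5-fold set for a call. Thus 3 of 4 members were called, where 21.6% of genes were. Astrocyte markers moved with TTX, with 7 of 7 higher and a sum of 5331 to 6347 CPM against 1562 to 1943 CPM, while neuronal markers summed to 6983 to 8134 CPM against 9000 to 9684 CPM, and their part in the result was not tested.

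Release from TTX gave the largest changes of Maff. At 15 min no member was called. Atf3 was measured at 22.3, 12.2 and 9.57 CPM and Maff at 0.755, 2.87 and 1.69 CPM, from 2, 4 and 3 counts, and both overlapped basal TTX. No gene was called at all (0% of 12027), with 0 by DESeq2 and 9 by the likelihood ratio test, none of them a member, and 758 genes at an unadjusted p under 0.05. The activity genes Fos (log2 fold change 1.11, SE 0.30, adjusted p = 0.54), Egr1 (0.91, SE 0.23, adjusted p = 0.54) and Arc (0.45, SE 0.25, adjusted p = 0.86) were not called either.

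At 45 min Atf3 was measured at 51.2 and 40.4 CPM, above all silenced samples and back within the range of basal neurons that had not been silenced. The log2 fold change against basal TTX was 2.18 (SE 0.26, adjusted p = 3.6e-07). Maff was measured at 17.7 and 9.14 CPM (log2 fold change 3.22, SE 0.54, adjusted p = 0.00046). The call of Maff was lost without TTXw replicate 1 (log2 fold change 2.70, adjusted p = 0.16), when a single sample was left at this time and was assumed to vary like the other groups. Without basal TTX replicate 1 its log2 fold change was 3.86. These 2 of 4 members were among few genes, since 0.382% of genes were called.

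At 180 min Atf3 was measured at 211, 157 and 172 CPM and Maff at 45.1, 49.7 and 94.2 CPM. Every sample was above every sample of the silenced and the 15 min and 45 min groups. The log2 fold changes were 4.16 for Atf3 (SE 0.21, adjusted p = 3.3e-18) and 5.45 for Maff (SE 0.39, adjusted p = 2.1e-13). From summed counts the ratio of Maff to basal TTX was 44.4, with an exact 95% interval of 23.8 to 93.5, and that of Atf3 17.7 (14.0 to 22.8). Here too the intervals leave out the spread between samples. Maff was the fifth and Atf3 the 15th by size among 882 genes called higher. Both were called in all 17 alternatives, with log2 fold changes from 5.06 to 6.09 (without basal TTX replicate 1) for Maff and from 4.02 to 4.29 for Atf3. They were 2 of 4 members called, where 14% of genes were.

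The other members moved little after TTXw. Mafg was measured at 183, 189 and 174 CPM at 180 min, above all samples of basal TTX and of TTXw at 15 and 45 min, a log2 fold change of 0.54 (SE 0.11, adjusted p = 0.00034) that was under the 1.5-fold needed for a call. The curated RefSeq transcript of Mafg, which held fewer counts than the predicted one used here and was tried after seeing the data, gave 0.78 (adjusted p = 0.0037) and was called. Mafk was measured at 13.7, 8.99 and 14.4 CPM, all above the silenced samples (log2 fold change 0.74, SE 0.33, adjusted p = 0.11). Over the same time astrocyte markers rose to a sum of 7720 to 12063 CPM from 5331 to 6347 CPM, with 5 of 7 called higher, and neuronal markers summed to 4306 to 5253 CPM against 6983 to 8134 CPM, with 5 of 9 called lower. Their part in the changes of the members was not tested.

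**Figure D3:**
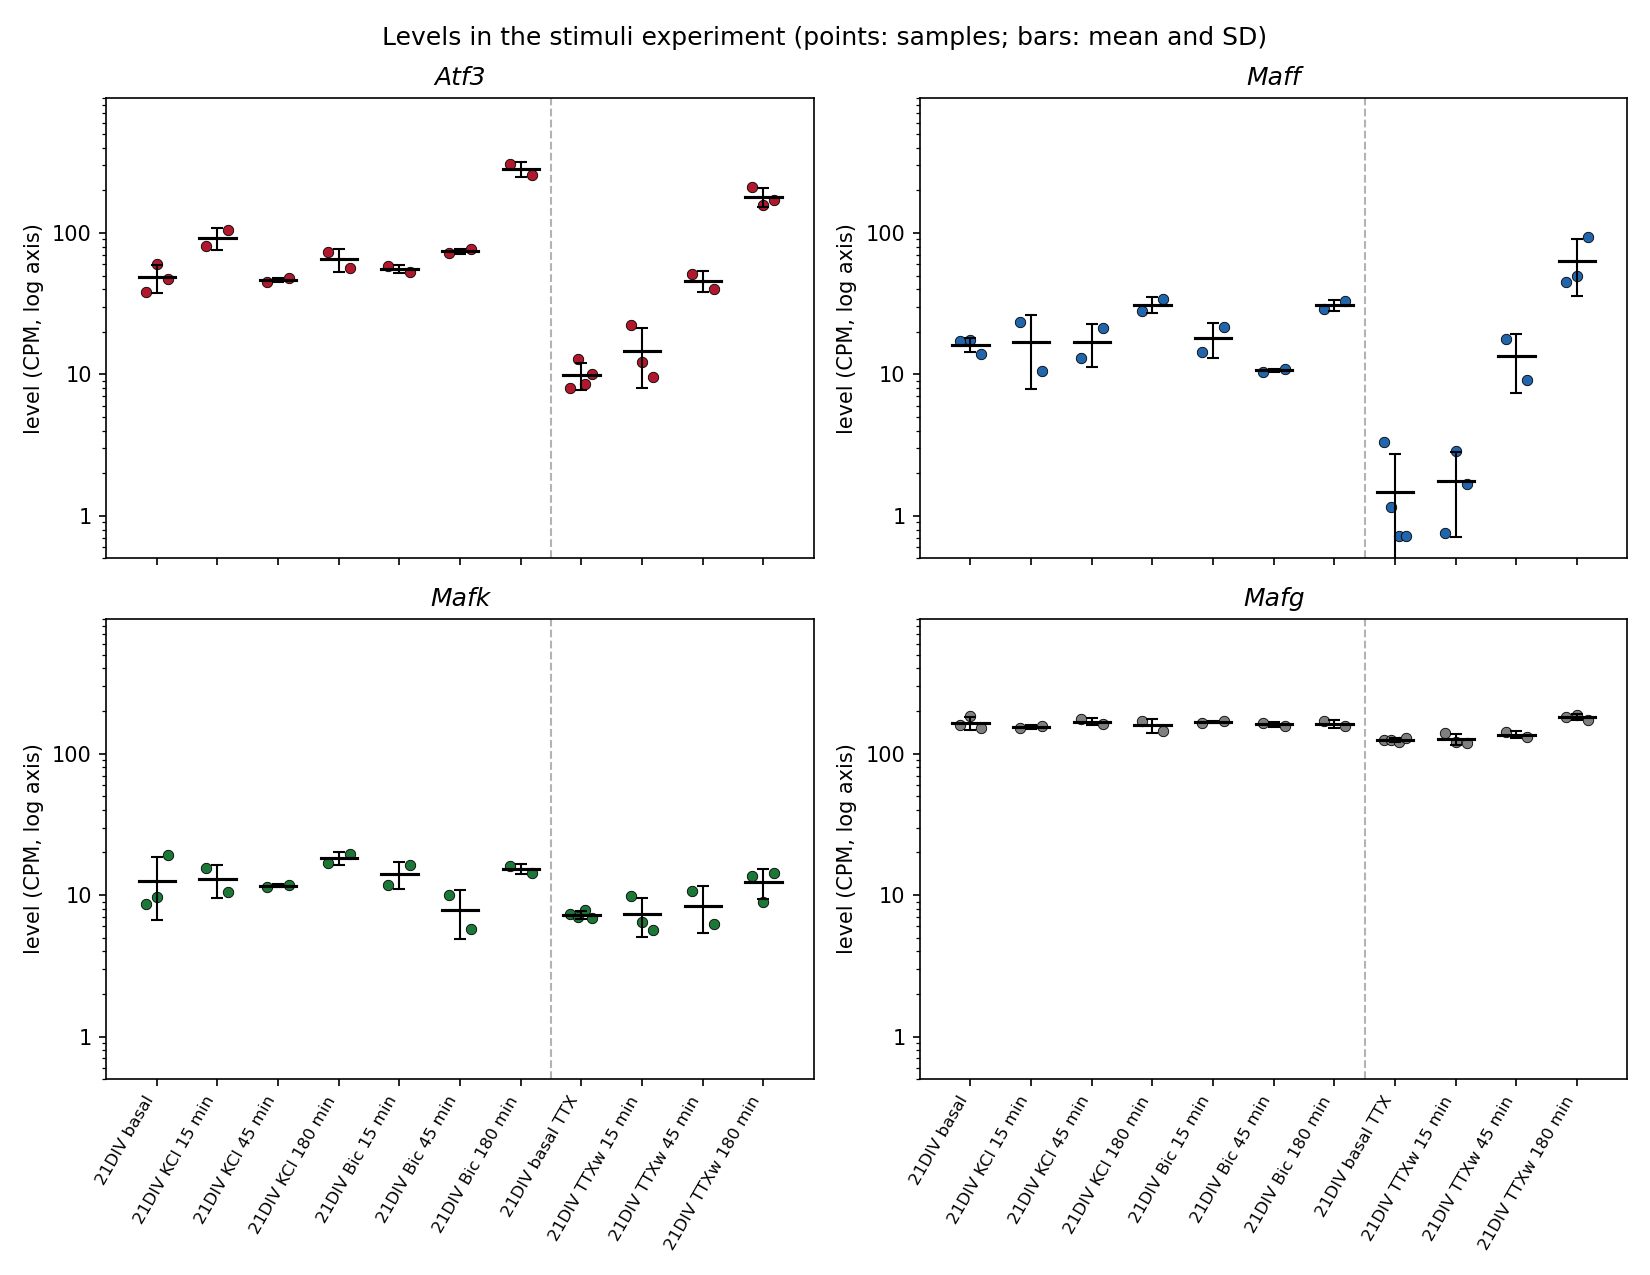
Level of each gene (CPM on a log axis) in every sample of the stimuli experiment, in 11 groups with the silenced neurons and TTXw to the right of the dashed line, where points are samples and bars the mean and SD (a lower SD arm that would pass below 0 is left out). Maff runs from 0.715 to 3.33 CPM in basal TTX to 45.1 to 94.2 CPM with TTXw at 180 min, above its 29.003 and 32.789 CPM with Bic at 180 min, whereas Atf3 is higher with Bic (258 and 309 CPM) than with TTXw (157 to 211 CPM).

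The responses to TTXw, Bic and KCl were then compared at the same times, each against its own control. At 45 min, TTXw exceeded Bic by 1.56 for Atf3 (SE 0.33, adjusted p = 0.0062) and by 3.82 for Maff (SE 0.65, adjusted p = 0.00075) on the log2 scale, 2 of 4 members where 1.8% of genes were called. It exceeded KCl by 2.23 (SE 0.33, adjusted p = 0.00011) and 3.16 (SE 0.64, adjusted p = 0.012), where 0.233% of genes were called. Without TTXw replicate 1, only 1 member was called in each of these, and the call of Maff over KCl was lost in 6 of 21 alternatives in all.

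At 180 min, TTXw exceeded Bic by 1.61 for Atf3 (SE 0.29, adjusted p = 0.00023) and by 4.53 for Maff (SE 0.54, adjusted p = 2.5e-07), and KCl by 3.74 (SE 0.31, adjusted p = 2.1e-11) and 4.51 (SE 0.56, adjusted p = 5.7e-07). Mafg was called as well, by 0.56 over Bic (SE 0.16, adjusted p = 0.026) and 0.60 over KCl (SE 0.17, adjusted p = 0.021). These were 3 of 4 members in each, where 9.75% and 8.31% of genes were called. Such differences called at an adjusted p under 0.05 needed no minimum size. The calls of Mafg were lost in 10 of 23 and 6 of 23 alternatives. TTXw started from the lower levels of basal TTX. Without basal TTX replicate 1, the differences of Maff were 4.43 from Bic and 3.78 from KCl at 45 min, and 5.14 and 5.15 at 180 min. In levels, Atf3 ended higher with Bic at 180 min (283 ± 36.2 CPM, SD, n = 2) than with TTXw (180 ± 27.6 CPM, SD, n = 3), whereas Maff ended higher with TTXw (63.0 ± 27.1 CPM, SD, n = 3) than with Bic (30.9 ± 2.68 CPM, SD, n = 2), and in both cases the samples did not overlap.

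Ordered by mean level in the stimuli experiment, Atf3 was highest with Bic at 180 min, followed by TTXw at 180 min and KCl at 15 min (92.5 ± 16.4 CPM, SD, n = 2), each without overlap with the next. From Bic at 45 min (74.1 CPM) through KCl at 180 min, Bic at 15 min, basal and KCl at 45 min to TTXw at 45 min (45.8 CPM), neighbours overlapped, and TTXw at 15 min (14.7 CPM) and basal TTX (9.87 CPM) formed a separate lower end. In the maturation experiment its order was Bic+4AP at 180 min (494 ± 94.9 CPM, SD, n = 2), KCl at 180 min (120 ± 85.1 CPM, SD, n = 3) and KCl at 15 min (91.9 ± 56.4 CPM, SD, n = 3), all at 23DIV, and every other group had a mean between 6.90 and 17.97 CPM.

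Maff had its lowest groups at rest and at 15 min of Bic+4AP at 23DIV (2.45 and 2.06 CPM) and, in the other experiment, in basal TTX and TTXw at 15 min (1.48 and 1.77 CPM). In the maturation experiment its highest group was KCl at 180 min at 7DIV (40.1 ± 7.31 CPM, SD, n = 3). The groups between this and the lowest ran from 9.77 to 17.3 CPM with overlapping neighbours. In the stimuli experiment Maff was highest with TTXw at 180 min (63.0 ± 27.1 CPM, SD, n = 3). Mafk was highest with KCl at 180 min in both experiments, at 42.03 CPM at 7DIV, 32.8 CPM at 23DIV and 18.2 CPM at 21DIV, and lowest in basal neurons at 7DIV (6.15 CPM) and in basal TTX (7.26 CPM). Mafg means spanned from 145 to 188 CPM in the maturation experiment, where all neighbours in the order overlapped, and from 125 to 182 CPM in the stimuli experiment, where only the TTX groups up to 45 min were set apart from the rest.

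The genes that most resembled each member over all 55 samples, by Pearson's r of log2 CPM after centring within stage, experiment and TTX treatment, are given as a description, since the samples share libraries and stimuli. Atf3 was most like Pvr (r = 0.85), Ifrd1 (0.85), Rgs2, a regulator of G protein signalling (0.83), Nr4a3, an orphan nuclear receptor (0.83), and Fosl2, an AP-1 subunit (0.83). Maff was most like Pvr (0.84), Ier3 (0.83), Atf3 itself (0.83), Nr4a3 (0.80) and Coq10b (0.77). Mafk was most like Hspa1a, an inducible heat shock chaperone (0.74), Nktr (0.73), Elovl5 (0.72), Spty2d1 (0.72) and Chka (0.71). Mafg was most like Mcl1 (0.70), Taf13 (0.68), Ell2 (0.67), Nfatc1 (0.66) and Srxn1 (0.64). Between members, r was 0.55 for Atf3 and Mafk, 0.58 for Maff and Mafk, 0.36 for Atf3 and Mafg, 0.52 for Maff and Mafg and 0.12 for Mafk and Mafg.

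Of 7 genes for partners of the small MAF proteins, 5 were tested, since Nfe2 and Nfe2l3 were too low. With stage, Nfe2l2, which encodes NRF2, rose by 1.99 on the log2 scale and Nfe2l1 by 0.88, whereas Bach2 and Bach1, which encode repressors, fell by 1.80 and 1.44. In this comparison 33.1% of all genes were called. With TTXw at 180 min, Nfe2l2 (log2 fold change 0.86) and Bach1 (0.64) were called higher, 2 of 5, where 14% of all genes were called. Nfe2l2 was also higher in basal TTX than in basal neurons (0.67) and with Bic at 45 min (0.68). Keap1, whose protein holds NRF2 in check, was lower with Bic+4AP at 180 min at 23DIV (-0.67) and with Bic at 15 min (-0.64). No partner was called in any KCl response, where between 0% and 7.22% of all genes were.

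Genes known to be controlled through NRF2 and small MAF proteins were followed as a list of 15. With TTXw at 180 min, 8 of 15 were called higher and none lower, where 14% of all genes were called, and the median log2 fold change was 0.73, beside 0.02 for all genes. They were Srxn1, which reduces oxidized peroxiredoxins (log2 fold change 2.89, SE 0.14), Osgin1 (2.87, SE 0.44), Hmox1, which degrades heme (2.80, SE 0.16), the cystine transporter Slc7a11 (1.70, SE 0.19), Txnrd1 (1.45, SE 0.14), the glutathione synthesis subunits Gclc (1.24, SE 0.20) and Gclm (0.94, SE 0.16), and Me1 (0.69, SE 0.11). Osgin1 had at most 35 counts in any library of the stimuli experiment. With Bic or KCl at 180 min none of the 15 was called, where 0.765% of all genes were with each. Hmox1 was lower with Bic at 15 min (-0.72) and 45 min (-0.62). In the direct comparison at 180 min, the TTXw response was above that to Bic for 8 of 15 and above that to KCl for 7 of 15. Of all genes, 9.75% and 8.31% were called in these comparisons. As given above, astrocyte markers rose and neuronal markers fell in the same TTXw samples.

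**Figure D4:**
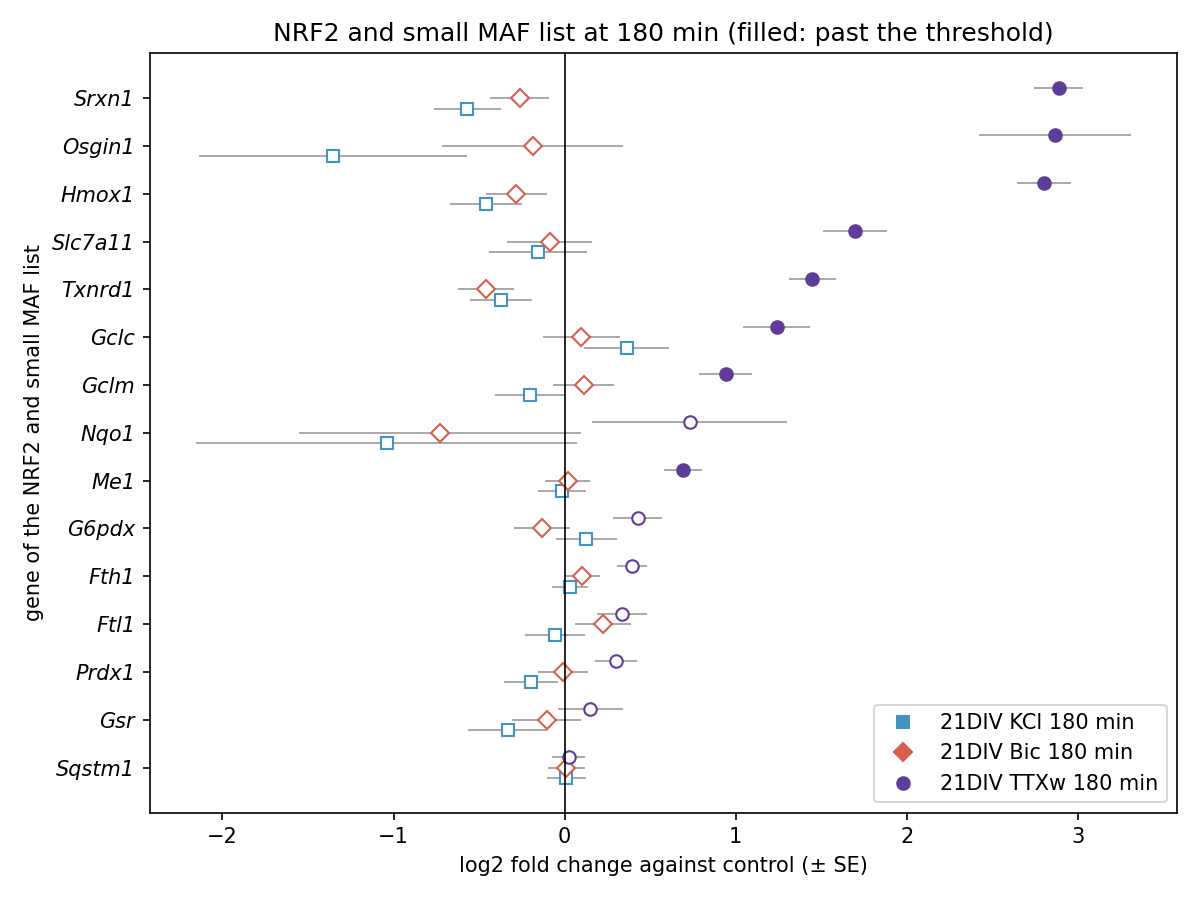
Log2 fold change against its own control (x axis, with SE) for the 15 genes of the NRF2 and small MAF list (y axis) with KCl, Bic and TTXw at 180 min in the stimuli experiment, where filled symbols passed the threshold. With TTXw 8 genes are filled, up to 2.89 for Srxn1, where 14% of all genes were called. With KCl or Bic none is, where 0.765% of all genes were called with each.

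In the maturation experiment, 4 of 14 tested genes of this list were higher with KCl at 15 min at 23DIV, where 6.23% of all genes were called, namely Hmox1 (log2 fold change 1.30), Srxn1 (1.16), Gclm (0.75) and Txnrd1 (0.66), and 1 each with KCl (Hmox1, 0.92) and Bic+4AP at 180 min (Ftl1, 1.16). At 180 min 4.89% of all genes were called with KCl and 14.2% with Bic+4AP. None of the list was called at 7DIV, where at most 1.98% of all genes were in any response. Between stages at rest, 8 of 14 were higher and 2 lower at 23DIV, where 33.1% of all genes were called, led by Hmox1 (3.56) and Osgin1 (2.90), with Ftl1 (-0.84) and Txnrd1 (-0.67) lower. In basal TTX, Prdx1 (0.86) and Slc7a11 (0.85) were higher and Hmox1 (-0.75) was lower than in basal neurons.

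Relatives and dimer partners of Atf3 in the bZIP class were followed as a list of 24. Of 20 tested in the stimuli experiment, 5 were higher with Bic at 180 min, led by Fosb (log2 fold change 3.34), Junb (2.59) and Fos (2.27). In that comparison 0.765% of all genes were called. With TTXw at 180 min, 8 were higher and 1 lower, where 14% of all genes were called. Fosl1, an AP-1 subunit, led those higher with TTXw at 6.28 (SE 0.55), before Fosb (1.92), Fosl2 (1.85) and Creb5 (1.81), and Atf2 was lower (-0.65). The value of Fosl1 rests on few counts, at most 61 in any library of this experiment. At 45 min of TTXw, Fos (4.15), Fosb (3.58), Junb (2.12) and Jun (0.83) were higher. In basal TTX, 9 of 20 were lower and 1 higher, with Fosl1 at -2.86, where 21.6% of all genes were called. The medians of the list with Bic and TTXw at 180 min were 0.19 and 0.58, beside -0.01 and 0.02 for all genes. At 23DIV, 7 of 19 were higher with KCl at 15 min, where 6.23% of all genes were called, and 8 with KCl at 180 min, where 4.89% were. With Bic+4AP at 180 min, 9 were higher and 3 lower, where 14.2% of genes were called. Among the last, Jun was at 3.11 and Jdp2, a close relative of Atf3, at -0.87.

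The integrated stress response, in which ATF4 raises Atf3 in other settings, was followed as 9 genes. With KCl at 15 min at 23DIV, Trib3 (log2 fold change 2.48), Ppp1r15a (1.48), Ddit3 (1.40) and Chac1 (0.96) were higher, whereas with KCl at 15 min at 21DIV Ppp1r15a (-0.83) and Ddit3 (-0.71) were lower. With KCl at 180 min at 23DIV, 7 of 9 were higher and none lower, where 4.89% of all genes were called, with Sesn2 (log2 fold change 2.54), Trib3 (2.51) and Ppp1r15a (2.37) in the lead and a median of 1.12, beside -0.02 for all genes. With Bic+4AP at 180 min, 5 were higher, among them Sesn2 (2.70) and Ddit3 (1.98), and Atf5 was lower (-0.61), where 14.2% of all genes were called. In the stimuli experiment fewer were called at 180 min. With KCl, Ppp1r15a (1.03) and Atf4 (0.63) were, where 0.765% of all genes were. With Bic none of the 9 was called, where 0.765% of all genes were. With TTXw, Ppp1r15a (1.21) and Atf4 (0.81) were called, where 14% of all genes were. The part of these genes in the changes of Atf3 was not tested. With Bic at 45 min Ddit3 (-1.04) and Ppp1r15a (-0.70) were lower and Atf5 (0.59) higher. In basal TTX 6 of 9 were lower and 1 higher, with Ppp1r15a at -2.13 and Ddit3 at -1.87, where 21.6% of all genes were called.

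Of genes that accompany Atf3 in injured neurons, 11 of 12 were tested. With TTXw at 180 min only Sprr1a was higher (log2 fold change 3.27, SE 0.73), while Npy (-1.24) and Flrt3 (-0.59) were lower, where 14% of all genes were called. Sprr1a had at most 17 counts in any library of the stimuli experiment. With Bic+4AP at 180 min at 23DIV, Jun (3.11), Ecel1 (2.32), Flrt3 (1.29) and Npy (0.84) were higher. With Bic at 180 min only Jun was (0.85), where 0.765% of all genes were called. Gap43, Gal and Sox11 were not called in any response to KCl, Bic+4AP or TTXw, and Sox11 was higher with Bic at 45 min (0.74).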

How the data were processed

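Total RNA of primary forebrain neurons was turned into 3′ end libraries by CEL-Seq2. The authors aligned reads to mm10 with STAR (STAR and edgeR are named in the submitters' processing notes without versions) and deposited counts per RefSeq transcript made with ESAT. Whether molecular identifiers were collapsed, and whether counting used strand, is not given in the sources used here. If identifiers were not collapsed, the exact intervals are too narrow even for counting error. They also leave out the spread between replicates, which was larger than counting error. Over 48 pairs of samples of the same group, the chi-square per degree of freedom ran from 2.08 to 17.98, with a median of 4.11.

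Transcripts were matched by accession to RefSeq genes (GRCm38.p6), and the transcript with the most counts stood for its gene. Unmatched transcripts held 18.5% of maturation and 19.2% of stimuli counts. Mafg was represented by a predicted transcript. Mafk overlaps Tmem184a, Atf3 overlaps Gm24748 (opposite strands) and Mafg overlaps Sirt7 (same strand). The test set was every gene with 2 or more samples above 5 CPM, taken per experiment, with edgeR 4.0.16 (R 4.3.3; quasi-likelihood F test, TMM, Benjamini-Hochberg). CPM values are TMM-normalized. The SE was the absolute log2 fold change divided by the root of F. Calls for a response needed an adjusted p under 0.05 and 1.5-fold, and calls for a difference between responses only the former. Basal neurons of both stages were fitted on their own. Genes most like a member were the 5 with the highest Pearson's r. The members, gene lists and motifs were chosen with earlier results of these data known, the motifs after the sequences were seen. Alternatives were the likelihood ratio test, DESeq2 1.42.0, other size factors and filters, thinning, summed or second transcripts, the compared groups only, a replicate block and leaving out each library. The tests were checked on simulated data. Of 100 changes of 2-fold, 67% to 72% were recovered, and of 100 changes of 4-fold, 90% to 100%. Between 4 and 9 unchanged genes were called. The changed genes were drawn from those with more counts than Maff had in basal TTX.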

Additional observations from a re-analysis of the deposited data

Results flagged for a closer look

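Maff in basal TTX had 1 library that stood apart from the other 3, at 3.33 CPM (5 counts) against 0.715 to 1.16 CPM (1 or 2 counts). The gap to its nearest neighbour was 0.8291 of the whole range, at the 95% critical value of Dixon's test for 4 samples. Chance alone passes this limit in about 1 in 20 groups, and all 4 values rest on very few counts. The response of Maff to 15 min of KCl differed between stages by 2.38 on the log2 scale (SE 0.62, adjusted p = 0.039 by edgeR's quasi-likelihood test), with a value of -0.30 at 7DIV and 2.08 at 23DIV.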

How the results depend on the processing

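No log2 fold change of a member that was called changed sign. Of 1145 values under other settings, 26 lost and 8 gained a call, and of 764 values with 1 library left out, 43 lost and 3 gained one. These counts include the responses that led to the choice of members, whose calls are not tests. The cause of the lost and gained calls was not tested. The number of members called changed by over 1.5 times as follows. Fitted on the compared groups only, it was 1 in place of 2 for KCl at 15 min at 23DIV, 0 in place of 1 for the stage difference of KCl at 15 min, 1 in place of 0 for KCl at 180 min at 21DIV and 2 in place of 1 for Bic at 180 min. With no filter on low counts it was 2 in place of 1 for the stage difference of KCl at 15 min, for basal neurons between stages and for Bic at 180 min. The likelihood ratio test gave 2 for that stage difference. Counts summed over transcripts gave 0 for it, 0 in place of 1 for Bic at 45 min and 1 in place of 2 for TTXw against KCl at 45 min. Thinning to the smallest library gave 0 for Bic at 45 min and 1 for TTXw against KCl at 45 min. A single F test over all times gave 2 in place of 1 for Bic at 21DIV. With each library left out in turn, members called ranged from 0 to 2 for the stage difference of KCl and for Bic+4AP against KCl at 15 min at 23DIV, from 1 to 2 for basal neurons between stages, for TTXw at 45 min and for TTXw against Bic or KCl at 45 min, and between 0 and 1 for KCl at 15 min and Bic at 45 min at 21DIV. It was 2 in place of 3 wherever Mafk lost its call in basal TTX (7 other settings and 5 libraries left out) or Mafg its call for TTXw against Bic or KCl at 180 min. Replicate numbers of the labels did not pair the samples, since the median correlation of same-numbered samples lay between -0.02 and 0.01. With the number as a replicate block, members called were 0 for Bic at 45 min (Atf3 0.61, adjusted p = 0.091) and 1 for TTXw against KCl at 45 min (Maff 2.84, adjusted p = 0.13), and calls were lost for Mafk in basal TTX (-0.26, adjusted p = 0.66) and for Mafg in TTXw against Bic at 180 min (0.58, adjusted p = 0.061).

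The number of all genes called depended more on the settings, from 468 to 911 (732 as reported) for KCl at 15 min at 23DIV, from 350 to 762 (574) for KCl at 180 min at 23DIV, from 133 to 356 (233) for KCl at 180 min at 7DIV, from 333 to 990 (767) for Bic+4AP against KCl at 15 min, from 32 to 141 (92), 43 to 179 (92) and 55 to 138 (92) for KCl at 45 and 180 min and Bic at 180 min at 21DIV, from 26 to 104 (46) for TTXw at 45 min, and from 55 to 333 (216) and 669 to 1403 (1173) for TTXw against Bic at 45 and 180 min. With 1 library left out, these ranges widened to 289 to 1105, 230 to 886 and 106 at the lowest for the KCl responses of the maturation experiment, and gene counts fell to 142 for Bic+4AP against KCl at 15 min, to 674 (1672) for Bic+4AP at 180 min at 23DIV and ranged from 64 to 567 (238) for the stage difference of KCl at 15 min. Gene counts of the KCl and Bic responses at 21DIV also fell with 1 library left out. They are not given, since some of those fits left a single sample in a group. With no filter, 27, 28 and 21 genes were called in the 3 responses at 7DIV that had none, and 10 for TTXw at 15 min. The 5 genes most like Atf3, Maff, Mafk and Mafg shared 2, 3, 1 and 2 with the 5 by Spearman's rho, and 1, 1, 3 and 0 with those found without centring. Depth limits Maff, which had at most 5 counts in any library of basal TTX.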
